A study of Mus musculus with 4 samples.

Results

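A foam cell-like and a resident-like population of aortic macrophages were compared, both with few transcripts per cell and little of the nuclear RNA Malat1. The first is cluster 8 of the authors' deposited clustering, with 105 cells, and the second is cluster 3, with 325 cells, so that 430 of the 3002 deposited cells enter the comparison. The members were chosen by cluster number alone, and the cell names assign each cell to a library. The cells are living CD45+ leukocytes sorted from atherosclerotic aortas of Apoe-/- mice fed a western diet for 13 weeks, and transcripts were counted at their 3' ends, cell by cell, in droplets. Every mouse carried the same genotype and diet, so no control genotype or diet enters, and nothing here is a response to either. The series text names 6 mice, and the titles name 2 biological replicates with 2 libraries each (1-1 and 1-2, 2-1 and 2-2). The labels do not say how the mice were divided over them, so p-values measure the spread between these samples only.

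Macrophages of the artery wall take up lipoproteins and store the cholesterol as esters in droplets, which gives them the look of foam. Foamy macrophages of mouse plaques are known for Trem2, Spp1, Gpnmb, fatty acid-binding proteins and a large set of lysosomal genes, since ingested lipid is broken down in acidified lysosomes and exported by transporters such as Abcg1. Resident macrophages of the outer vessel wall are known for the hyaluronan receptor Lyve1, the mannose receptor Mrc1, the haemoglobin scavenger receptor Cd163, Folr2, F13a1, Pf4 and Ccl8. Malat1 and Neat1 are long RNAs that stay in the nucleus.

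The depth of the cells was close but not equal in the clusters. The median cell of cluster 8 held 980 UMIs (unique molecular identifiers, the tags by which single RNA molecules are counted), 884 in replicate 1 and 1061 in replicate 2. The median cell of cluster 3 held 834 UMIs, 855 and 827 in the replicates. The deeper macrophages of cluster 0, beside them, had a median of 4404 UMIs. A Malat1 UMI was found in 13.3% of cells in cluster 8 and 15.7% in cluster 3, against 99.8% in cluster 0. With each cell thinned at random to 500 UMIs the shares were 8.57%, 11.4% and 98.4%, so both clusters were poor in this RNA at equal depth. Levels are given as CPM, the UMIs of a gene per 1000000 UMIs of a cluster and replicate. Malat1 stood at 491 and 287 CPM in the replicates of cluster 8 and at 1815 and 419.6 CPM in cluster 3, and these values overlapped. In cluster 3, 217 of 312 Malat1 UMIs came from library 1-2. The fitted log2 fold change was -1.31 ± 0.26 (standard error, adjusted p = 0.000124). It was -0.39 without library 1-2 (adjusted p = 0.528), and the adjusted p was 0.0697 without library 1-1 and 0.294 without library 2-2. Neat1 had 5 UMIs in cluster 8 and 8 in cluster 3, too few for the test. Mitochondrial transcripts made up 4.09% of UMIs in cluster 8 and 5.74% in cluster 3, and ribosomal protein transcripts 18.2% and 22.5%. The part of these differences in the results below was not tested.

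Cluster 8 took 24.4% of the 430 cells (exact 95% interval 20.4% to 28.8%). Its share was 28.0% in replicate 1 and 22.1% in replicate 2. Over the libraries it ran from 19.0% in library 2-2 to 29.9% in library 1-2, and the intervals of those libraries overlapped. No cell barcode was shared between libraries.

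The markers given for the comparison differed in the same direction in every library. Spp1 (chr5:104435118-104441050), which encodes the secreted matrix protein osteopontin, stood at 10538 and 10183 CPM in the replicates of cluster 8 and at 122 and 137 CPM in cluster 3. Its fitted log2 fold change was 6.36 ± 0.21 (adjusted p = 1.26e-22). Gpnmb (chr6:49036546-49070929), a glycoprotein of lysosomal and cell membranes, had 218 UMIs in cluster 8 and 2 in cluster 3. Its levels were 1875 and 1569.8 CPM against 0 and 9.43 CPM, a ratio of pooled levels of 285 with a 95% counting interval of 77.9 to 2367. Both of these genes were far above cluster 3 in each replicate. Ccl8 (chr11:82115185-82116799), a chemokine, stood at 109 and 164 CPM in cluster 8 and at 3695 and 2093 CPM in cluster 3, with a log2 fold change of -4.22 ± 0.27 (adjusted p = 7.78e-15). Cd209f (chr8:4102787-4105835), a C-type lectin, had no UMI in cluster 8 and 57 in cluster 3, at 187 and 160.3 CPM, so it was at least 7.27-fold lower in cluster 8 when 3 counts over the group are taken as the floor. In library 1-1 the difference in Cd209f rested on 3 UMIs in cluster 3, too few to separate the clusters there. Coordinates are from GENCODE M21 on GRCm38. Genes of the Cd209 family are near-identical copies, as are Ccl8 and Ccl12 in part, and reads could have been split among them.

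**Figure D1:**
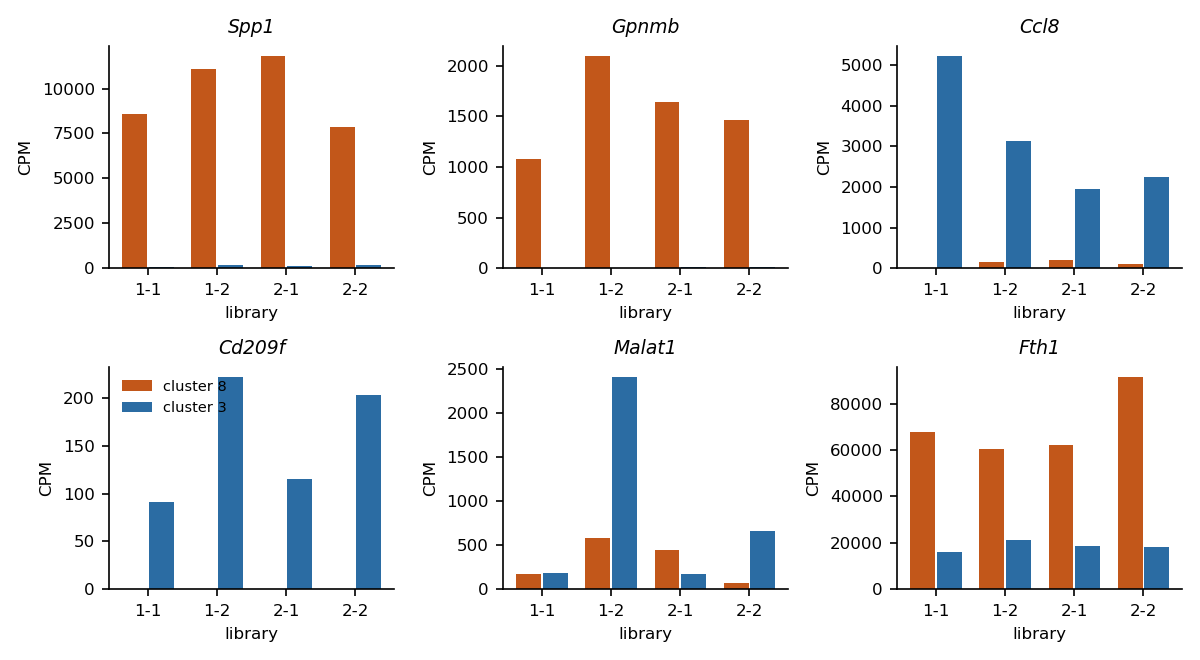
Levels of the 4 given markers, of the nuclear RNA Malat1 and of ferritin heavy chain (Fth1) in each of the 4 libraries (horizontal axis, biological replicate and library) in CPM (vertical axis), as bars for cluster 8 and cluster 3. Spp1, Gpnmb and Fth1 were higher and Ccl8 and Cd209f lower in cluster 8 in all 4 libraries, while Malat1 was higher in cluster 8 in library 2-1 alone.

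Most markers listed for the 2 states separated in the same way, which is a description of clusters drawn from these counts. Of 12 foamy macrophage markers, 11 were called higher in cluster 8 and none lower (adjusted p under 0.05), against 15.6% of the 1189 genes tested called higher, 17.2% called lower and 32.9% called either way. All 12 passed the filter on low counts, and their median log2 fold change was 3.49. The exception was Cd36, a scavenger receptor for oxidised lipoproteins, at 91.0 and 109 CPM against 73.2 and 141 CPM, where the replicates overlapped. Of 12 resident macrophage markers, 10 passed the filter on low counts, and all of these were called lower, with a median of -5.85, or -4.07 with the 4 genes that had no UMI in cluster 8 set to their bound. Timd4 and Cd209g had too few counts, with no UMI in cluster 8. A gene with few or no counts in 1 cluster passes the filter through the other, so counts over tested members describe those members and support nothing further. Among 11 tested pan-macrophage markers, 3 were called higher (Cd68, Lyz2 and Tyrobp) and 8 lower, among them Csf1r and C1qa. Without library 1-1 these counts were 1 and 4, and without library 2-1 they were 1 and 2. The names foamy-like and resident-like are used for clusters 8 and 3 from here on.

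Few of these shallow cells had UMIs of both pairs of given markers. Detection at this depth is incomplete and the clusters were drawn from these counts, so this does not show that the states exclude each other. In the foamy-like cluster, 70 cells had a UMI of Spp1 or Gpnmb and of neither Ccl8 nor Cd209f, 7 had UMIs of both pairs and 28 of neither, and no cell had only the resident pair. In the resident-like cluster, 121 cells had only Ccl8 or Cd209f, 18 only Spp1 or Gpnmb, 3 both and 183 neither. The cells with both pairs were deeper than their clusters, with a median of 1560 UMIs in the foamy-like and 1734 in the resident-like cluster. At 500 UMIs per cell, 3 foamy-like and 0 resident-like cells held both. How doublets were treated is not given in the sources used, and no doublet caller was run.

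At 500 UMIs per cell Gpnmb was found in 44.8% of foamy-like cells and in 0 of 325 resident-like cells, which allows a share of cells with a UMI of up to 0.923% by the floor of 3 counts and 1.13% by the exact 95% interval. A limit of this kind is on UMIs in shallow cells, not on cells that express the gene. Without thinning the shares were 54.3% and 0.615%. Cluster 4, whose cells are rich in MHC class II transcripts and poor in C1qa, serves as a background for transcripts released from other cells. Its median depth was 7192.5 UMIs, so thinning to 500 UMIs removes more from its cells than from the shallow ones. Its share at 500 UMIs can therefore understate such a background in shallow cells, and its unthinned share is given as well. Gpnmb was found in 1.81% of its cells unthinned and in none at 500 UMIs. In cluster 7, another cluster outside the macrophages compared, with a median of 1601 UMIs, Gpnmb was found in 1.6% of cells and Spp1 in 21.6% at that depth. Spp1 was found in 59.0% of foamy-like and 4.0% of resident-like cells at that depth (65.7% and 6.15% unthinned), against 1.81% in cluster 4 (13.0% unthinned). Fabp5 was found in 90.5% and 4.62% (93.3% and 6.46% unthinned), against 9.06% in cluster 4 and 1.10% in cluster 0. The resident-like share thus lay between those of the 2 other clusters, and 37.0% of cluster 4 cells held Fabp5 unthinned. Ccl8 was found in 2.86% of foamy-like and 30.8% of resident-like cells (6.67% and 37.2% unthinned). In cluster 4 it was found in 3.62% (15.9% unthinned), and the foamy-like share was not above that background. Mrc1 was found in 0 of 105 foamy-like cells, which allows up to 2.86% of cells with a UMI by the floor and 3.45% by the exact interval. It was found in 34.2% of resident-like cells (44.9% unthinned), against 6.16% in cluster 4 (42.0% unthinned). The unthinned shares of Mrc1 in these 2 clusters were thus close, in cells of unlike depth.

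**Figure D2:**
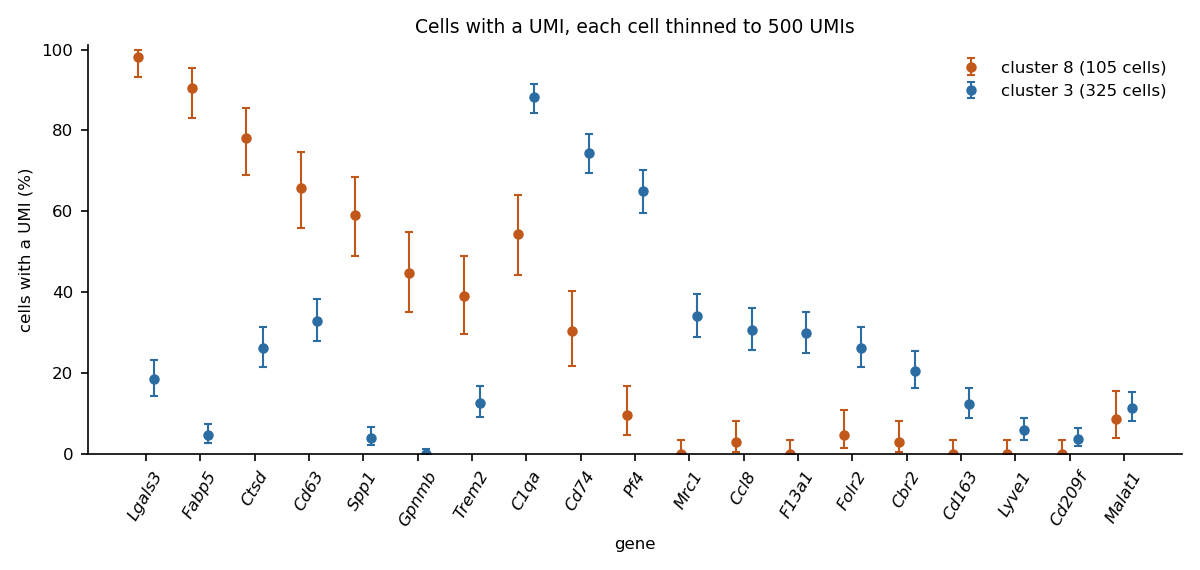
Share of cells with at least 1 UMI of a gene (vertical axis, percent) after every cell was thinned to 500 UMIs, for 19 genes (horizontal axis), with exact 95% binomial intervals that cover counting error only. Foamy markers were found in a larger share of cells in cluster 8 and resident markers in cluster 3. The intervals of Malat1 overlap, as do those of Cd209f, at 3.69% in cluster 3 and 0% in cluster 8.

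Across all genes, 186 of the 1189 tested were called higher in the foamy-like cluster and 205 lower by edgeR's quasi-likelihood test at a Benjamini-Hochberg adjusted p under 0.05. At least 2-fold differences made up 136 of the higher and 163 of the lower calls. In 63.8% of the tested genes the replicate values of the clusters did not overlap, and 386 of the 391 called genes were among these. With library totals in place of TMM factors the calls were 146 higher and 265 lower, and the median log2 fold change of all tested genes moved from 0.01 to -0.15. Leaving out a library gave 106 higher and 92 lower calls without 1-1, 96 and 106 without 1-2, 85 and 70 without 2-1, and 114 and 112 without 2-2. Fewer genes passed the filter in these fits, 1019, 688, 1018 and 1013 in turn. Without 1-2, 126 of the 186 and 140 of the 205 were tested, and 90 and 99 were called again. Counts of list members called without a library have the same limit. DESeq2 called 56 and 47. No gene was called in opposite directions under any of these settings. The authors drew the clusters from these same counts, so the p-values are too small and serve to rank and describe.

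**Figure D3:**
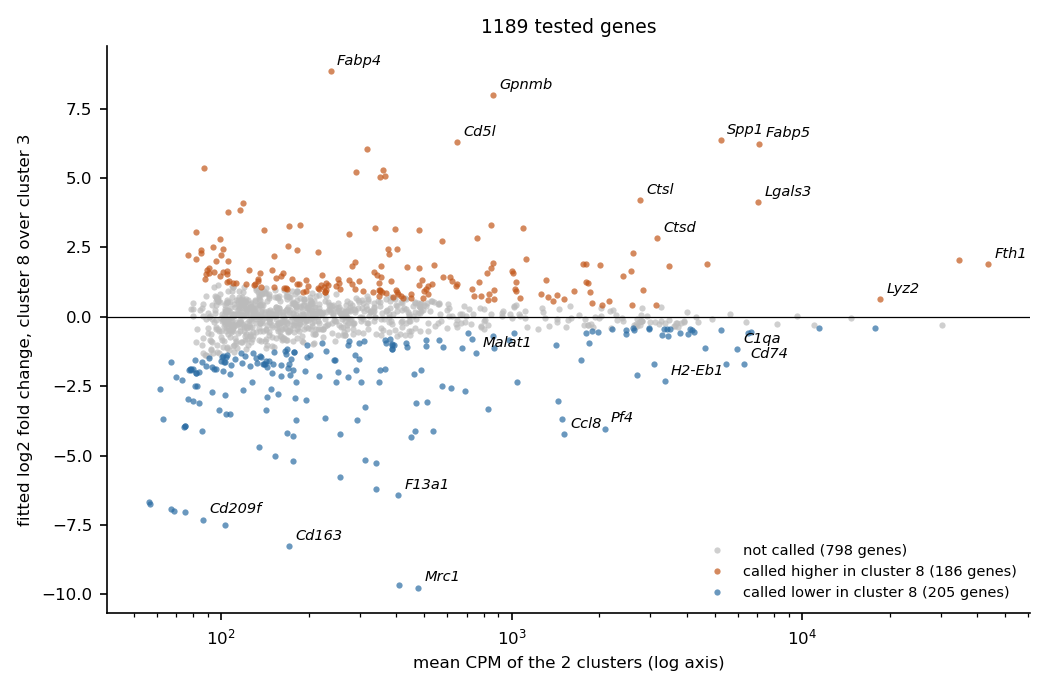
Fitted log2 fold change of the foamy-like cluster 8 over the resident-like cluster 3 (vertical axis) against the mean CPM of the clusters (horizontal axis, log scale) for the 1189 tested genes, with 186 called higher and 205 called lower in colour. Genes at both ends of the fold scale are labelled, from Fabp4 at the top to Mrc1 at the bottom, each with no UMI in 1 cluster, so that their fitted values depend on the added prior count.

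Fatty acid-binding proteins and lipid storage genes were among the genes with the largest differences. Of 5 tested members of the list for fatty acid uptake, binding and storage, 4 were called higher in the foamy-like cluster and none lower (median log2 fold change 3.21). Fabp5, a carrier of fatty acids in the cytosol, stood at 13850.2 and 14087 CPM in the foamy-like replicates and at 260.4 and 146 CPM in the resident-like ones, a log2 fold change of 6.24 ± 0.21 (adjusted p = 1.75e-22). Fabp4, its relative in fat cells and macrophages, stood at 473 and 478 CPM against no UMI, so it was at least 53.1-fold higher. The replicates of each cluster were close for both. Lpl, the lipoprotein lipase that frees fatty acids from triglyceride, stood at 546 and 669 CPM against 81.4 and 61.3 CPM (log2 fold change 3.21 ± 0.34). Plin2, which coats lipid droplets, stood at 1365 and 1583 CPM against 618 and 462 CPM, a smaller log2 fold change of 1.56 ± 0.20.

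Some genes of cholesterol export and lysosomal lipid breakdown were higher, most by less. Of 7 tested, 4 were called higher and none lower, with a median log2 fold change of 0.97, and 2 were called without library 1-1, 1-2 or 2-1. Psap, the precursor of saposins that present lipids to lysosomal enzymes, stood at 4696 and 3904 CPM in the foamy-like cluster and at 944 and 877 CPM in the resident-like cluster (log2 fold change 2.30 ± 0.17). Npc2, which hands free cholesterol out of the lysosome, stood at 2439 and 2293 CPM against 1367 and 1315 CPM (log2 fold change 0.89 ± 0.16). Abcg1, which exports cholesterol to high-density lipoprotein, had 17 UMIs against 11, or 164 and 109 CPM against 8.14 and 47.1 CPM. All 17 came from libraries 1-2 and 2-1, and in library 2-2 the order was the opposite, 0 against 64.8 CPM. Its adjusted p was 0.0743 without the deepest 5% of cells and 0.0688 with no filter on counts. Lipa, the lysosomal acid lipase, stood at 291 and 150.2 CPM against 106 and 113 CPM and did not pass the test (adjusted p = 0.0569). None of 16 genes of cholesterol synthesis had enough counts to be tested. Apoe had 1 UMI in the foamy-like and 11 in the resident-like cluster. Where the allele of these mice is altered relative to the counted 3' end is not given in the labels, so this count checks nothing.

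Most tested genes of lysosomal acidification, and several lysosomal proteases, were higher in the foamy-like cluster. Of 10 tested genes of the vacuolar proton pump, which acidifies lysosomes, 8 were called higher and none lower, with a median log2 fold change of 1.22. Atp6v0d2, a subunit known from osteoclasts and macrophages, stood at 655 and 751 CPM against 24.4 and 14.1 CPM in the resident-like cluster, a log2 fold change of 5.30 ± 0.42. Atp6v1e1 stood at 473 and 519 CPM against 195 and 151 CPM (log2 fold change 1.63 ± 0.30), with an adjusted p of 0.0734 without library 1-1. DESeq2 called 1 gene of the pump higher.

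Of 11 tested cathepsins and cystatins, 6 were called higher and 2 lower, with a median log2 fold change of 1.84. Ctsl, a cysteine protease of the lysosome, stood at 4586 and 5869.8 CPM against 301 and 297 CPM, a log2 fold change of 4.21 ± 0.19 (adjusted p = 7.03e-19). Ctsd, an aspartic protease, stood at 6297 and 4723 CPM against 887 and 712 CPM (log2 fold change 2.84 ± 0.17). Cstb, an inhibitor of cysteine cathepsins inside the cell, was higher as well, at 1984 and 1938 CPM against 277 and 184 CPM. The lower members were Ctsc, which activates serine proteases by trimming them, and the secreted inhibitor Cst3. Ctsc stood at 164 and 177 CPM against 1107 and 1028 CPM (log2 fold change -2.55 ± 0.27). Cst3 stood at 2912 and 2075 CPM against 7951 and 8905 CPM (log2 fold change -1.71 ± 0.17). The list therefore split into members higher and members lower. The replicates of these named members did not overlap, which holds for 386 of the 391 called genes and 63.8% of all tested genes.

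Of 15 tested lysosomal hydrolases and membrane proteins, 5 were called higher and none lower, with a median log2 fold change of 0.31, which was -0.07 without library 1-2. The calls numbered 2 without library 1-2 and 3 without each of the others in turn. Cd63, a tetraspanin of late endosomes, stood at 3458 and 2798 CPM against 919.6 and 877 CPM (log2 fold change 1.85 ± 0.17). Cd68, a heavily glycosylated lysosomal protein, stood at 1147 and 1283 CPM against 407 and 443 CPM (log2 fold change 1.59 ± 0.20). Outside the list, Acp5, the tartrate-resistant acid phosphatase of osteoclasts, stood at 801 and 628 CPM against 0 and 33.0 CPM (log2 fold change 5.08 ± 0.44). All 3 were higher in the foamy-like cluster in both replicates.

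Many lysosomal genes carry an E-box in their promoter, the CLEAR element, which is bound by the factors TFEB and TFE3. RefSeq promoter windows on GRCm38.p6, from 250 bases before to 50 bases after a gene's start, were searched for CACGTG, which reads the same on both strands, and for the longer core TCACGTGA, each match of which also holds the shorter one. A window was found for 150 of the 186 genes called higher, 154 of the 205 called lower and 911 of the 1189 tested. CACGTG was present in 13.7% of the windows of genes called higher, 7.61% for genes called lower, 10.8% for all tested genes and 7.15% of all 32851 windows. TCACGTGA was present in 2.11%, 1.52%, 2.25% and 0.974% of these windows. Of the windows of the vacuolar pump list 4 of 13 held CACGTG and 3 of 13 held TCACGTGA, and of the cathepsin and cystatin windows 5 of 14 and 2 of 14. Of the windows of lysosomal hydrolases and membrane proteins 5 of 21 held CACGTG and 1 of 21 TCACGTGA. The AP-1 site TGANTCA was in 8.95% of windows for higher, 10.7% for lower and 6.65% for all tested genes, and the PU.1 site GAGGAAGT in 3.16%, 6.09% and 3.95%, on both strands. Of the 133 called genes singled out in this account 98 had a window, and 7 of these held CACGTG, 8 matches in all. Per gene, the share with CACGTG was 12.1% over all tested genes with a window and 8.09% over all genes with one, so the 7 of 98 do not stand above either. They are printed below with up to 12 bases on both sides, in the direction of the gene, with the E-box in capitals, since they place the lysosomal genes beside the other matches. They belong to 5 genes called higher and to Dusp1 and Slamf9, called lower. The adjusted p of Dusp1, a phosphatase induced by stress, was 0.135 without library 1-1 and 0.195 without library 2-1.
Atp6v0e: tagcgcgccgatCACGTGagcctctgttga
Ctsd: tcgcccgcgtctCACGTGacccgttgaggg
Ctsd: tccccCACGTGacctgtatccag
Ctsl: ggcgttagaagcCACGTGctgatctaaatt
Dnmt3a: tccagtggggccCACGTGacctggagttct
Plin2: cagctgggctatCACGTGgctcggaggctt
Dusp1: tcaccgcccggtCACGTGtctgccattcaa
Slamf9: ggtagttcgaagCACGTGcatatgtgattt
The matches lie at chr17:26676387-26676416 (Atp6v0e), chr7:142387908-142387937 and chr7:142388055-142388077 (Ctsd), chr13:64370739-64370768 (Ctsl), chr12:3891652-3891681 (Dnmt3a), chr4:86670046-86670075 (Plin2), chr17:26508581-26508610 (Dusp1) and chr1:172475144-172475173 (Slamf9), on GRCm38.p6. Those of Atp6v0e and the first of Ctsd are the longer core. Atp6v0e stood at 965 and 1160.3 CPM in the foamy-like cluster and 562 and 401 CPM in the resident-like cluster (log2 fold change 1.27 ± 0.21). A match is a stretch of letters and not a measured binding site. RefSeq and GENCODE place the starts of Ctsd and Ctsl at different bases, so a match upstream of one start can lie within the gene of the other annotation.

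Both ferritin chains and some redox genes were higher in the foamy-like cluster, and some other iron genes were lower. Fth1, the ferritin heavy chain that stores iron, stood at 61935 and 74232 CPM in the foamy-like cluster and at 19815 and 18405 CPM in the resident-like cluster (log2 fold change 1.90 ± 0.15). Ftl1, the light chain, stood at 50305 and 60158 CPM against 14314 and 13884 CPM (log2 fold change 2.03 ± 0.15). These 2 were the higher members of 10 tested genes of the list for iron and haem handling, and 5 were lower: Cd163, Blvrb, Hfe, Hpgd and Trf. Hpgd, though in the list and in these counts, is known for breaking down prostaglandins and not for handling iron or haem. Without library 1-1, 2-1 or 2-2, 3 were called lower. Trf, which encodes transferrin, stood at 255 and 95.6 CPM against 887 and 1070.2 CPM (log2 fold change -2.51 ± 0.30). Of 9 tested antioxidant genes 4 were called higher and none lower (median log2 fold change 0.70). Prdx1, a peroxidase, stood at 2184 and 3289.8 CPM against 854 and 698 CPM (log2 fold change 1.91 ± 0.19). Txn1, the thioredoxin that keeps such enzymes reduced, stood at 1511 and 2061 CPM against 415 and 476 CPM (log2 fold change 2.08 ± 0.19). Hmox1, which breaks down haem, stood at 91.0 and 137 CPM against 236 and 80.1 CPM, with overlapping replicates.

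Some energy genes were higher, in smaller steps. Of 8 tested glycolysis genes 5 were called higher and none lower (median log2 fold change 1.04), with 3 called without library 1-2 or 2-1 and none by DESeq2. Pgam1 stood at 364 and 532 CPM against 146 and 108 CPM (log2 fold change 1.96 ± 0.33), with an adjusted p of 0.0517 without library 2-1. Aldoa stood at 564 and 519 CPM against 228 and 231 CPM (log2 fold change 1.29 ± 0.27). Of 33 nuclear genes of the respiratory chain and ATP synthase 8 were called higher and none lower (median 0.49). These 8 are 24.2% of the list, beside 15.6% called higher over all genes. They numbered 4 without library 1-1 or 1-2, 2 without 2-1 and 3 without 2-2, and DESeq2 called none. Cox5a, a subunit of complex IV, stood at 946 and 805 CPM against 382 and 358 CPM (log2 fold change 1.30 ± 0.22). Of 11 mitochondrially encoded genes 5 were called lower and none higher (median -0.40). None was called lower without library 1-1, 10 without 1-2, 1 without 2-1, 2 without 2-2 and 11 with no TMM factor. Among them mt-Co1, another subunit of complex IV, stood at 5842 and 4628 CPM against 8032 and 8089.8 CPM. The adjusted p of mt-Co1 was 0.00356, 0.139 without library 1-1 and 0.164 without library 2-1, and the authors' mitochondrial percent of cells was lower in the foamy-like cluster, with a median of 3.64% against 5.96%.

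Most tested galectins, S100 proteins and annexins were higher. Lgals3, the galectin also known as Mac-2, stood at 12467 and 14074 CPM in the foamy-like cluster and at 895 and 712 CPM in the resident-like cluster (log2 fold change 4.13 ± 0.18, adjusted p = 1.55e-19). Of 6 tested galectins and tetraspanins 5 were called higher and 1, Cd81, lower, with 3 higher without library 1-2. Cd9 stood at 1001 and 983 CPM against 155 and 160.3 CPM (log2 fold change 2.71 ± 0.25), and Cd81, a tetraspanin like it, at 146 and 205 CPM against 1204 and 1202 CPM (log2 fold change -2.67 ± 0.27). Of 11 tested S100 proteins and annexins, which bind calcium, 8 were called higher and none lower (median 1.25). Anxa1 stood at 437 and 1269.5 CPM against 81.4 and 132 CPM (log2 fold change 3.11 ± 0.29), with a wide spread between the foamy-like replicates. Of 17 tested cytoskeleton genes 6 were called higher and 2 lower (Coro1a and Marcks), with 1 lower without library 1-1, 2-1 or 2-2. These are 35.3% and 11.8% of the list, beside 15.6% and 17.2% over all tested genes. The 6 include Syngr1, a protein of vesicle membranes. Capg, which caps actin filaments, stood at 1128 and 1502 CPM against 187 and 207 CPM (log2 fold change 2.82 ± 0.23).

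Some matrix genes and bridging proteins for dying cells differed between the clusters. Mmp12, the macrophage elastase, stood at 728 and 642 CPM in the foamy-like cluster and at 8.14 and 28.3 CPM in the resident-like cluster (log2 fold change 5.03 ± 0.42). Of 4 tested matrix genes, Mmp12, Spp1 and Timp2 were called higher and Tgfbi lower. Timp2, an inhibitor of these enzymes, had an adjusted p of 0.0969, 0.132 and 0.218 without libraries 1-1, 1-2 and 2-1. Tgfbi, a secreted adhesion protein, had 0.147, 0.201 and 0.145 without libraries 1-1, 2-1 and 2-2. Among 8 tested receptors and bridges for dying cells, 3 were called higher (Mfge8, Trem2 and Tyrobp) and 2 lower (Gas6 and Stab1). Mfge8, which bridges phosphatidylserine on dying cells to integrins, stood at 637 and 505 CPM against 0 and 23.6 CPM (log2 fold change 5.20 ± 0.47). Gas6, which bridges the same lipid to the receptors Mertk and Axl, had 2 UMIs against 227, at 18.2 and 13.7 CPM against 635 and 702 CPM, a pooled ratio of 43.4 in favour of the resident-like cluster (95% counting interval 11.9 to 361). Each cluster thus held the transcript of a different bridging protein at the higher level. Trem2, a lipid-sensing receptor that signals through Tyrobp, stood at 1383 and 1215 CPM against 366 and 424 CPM (log2 fold change 1.76 ± 0.20). Cd5l, a secreted protein known to inhibit apoptosis of macrophages, stood at 928 and 1638 CPM against 0 and 28.3 CPM (log2 fold change 6.28 ± 0.37). Within the foamy-like cluster Cd5l ranged from 303 CPM in library 1-2 to 3159 CPM in library 1-1, and in the resident-like cluster all of its 6 UMIs were from library 2-2.

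Further genes with large differences toward the foamy-like cluster have other roles. Syngr1, a synaptogyrin of vesicle membranes that the cytoskeleton list also holds, had 80 UMIs against 3, a pooled ratio of 69.7 with a 95% counting interval from 23 to 345. Npy, neuropeptide Y, had 21 UMIs against 1, a pooled ratio of 54.9 (95% counting interval 8.83 to 2269). Dnmt3a, a DNA methyltransferase, stood at 200.2 and 232 CPM against 16.3 and 14.1 CPM (log2 fold change 3.86 ± 0.54). Vat1, a vesicle amine transport protein, stood at 273 and 177 CPM against 16.3 and 9.43 CPM (log2 fold change 4.10 ± 0.56). The UMIs of these 4 genes were few, and in the foamy-like cluster the largest part held by 1 cell was 38.1%, for Npy.

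**Figure D4:**
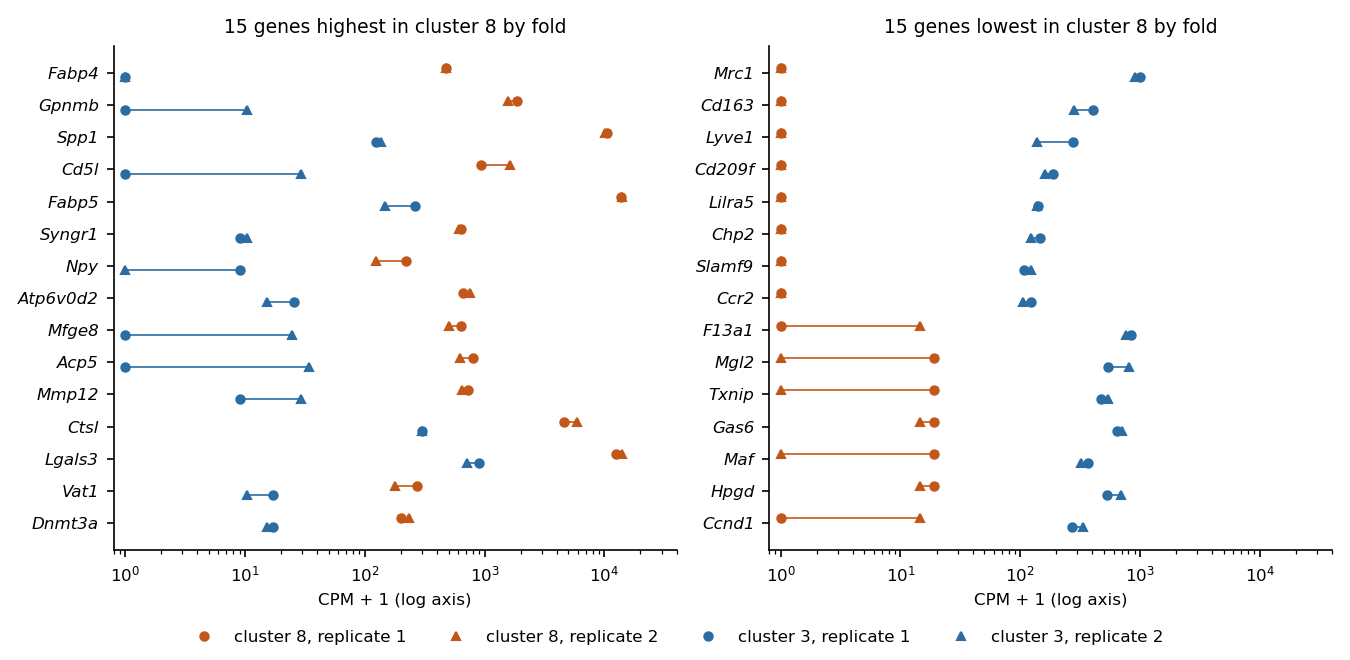
CPM plus 1 (horizontal axis, log scale) of the 15 genes with the highest and the 15 with the lowest fold change, with circles for biological replicate 1 and triangles for replicate 2. The genes were chosen among called genes, and in 386 of the 391 called genes the replicate values do not overlap (63.8% of all tested genes). That the replicates of the foamy-like cluster 8 and of the resident-like cluster 3 stand apart for every gene drawn follows largely from this choice. Points at 1 are genes with no UMI.

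Scavenger and lectin receptors of resident macrophages were lower in the foamy-like cluster. Of 8 tested scavenger and resident surface receptors 7 were called lower and 1, Cd5l, higher. Mrc1, the mannose receptor, had no UMI in 105 foamy-like cells and stood at 1001 and 900.4 CPM in the resident-like cluster, so it was at least 40.1-fold lower. Cd163, the haemoglobin scavenger receptor, had no UMI against 407 and 278 CPM, at least 13.9-fold lower. Lyve1, the hyaluronan receptor, had no UMI against 277 and 137 CPM, at least 8.04-fold lower. DESeq2 gave these 3 genes, with no count on the foamy-like side, adjusted p-values of 0.258, 0.47 and 0.568. Folr2, a folate receptor, stood at 36.4 and 54.6 CPM against 952 and 811 CPM (log2 fold change -4.12 ± 0.38). Of 11 tested C-type lectins 8 were called lower and 1, Clec4d, higher, with 5 lower without library 1-2, 2-1 or 2-2 and 2 by DESeq2. Clec4d, a receptor for microbial glycolipids, stood at 328 and 177 CPM against 32.6 and 23.6 CPM (log2 fold change 3.13 ± 0.48). F13a1, a coagulation factor subunit, had 1 UMI against 267, a pooled ratio of 102 toward the resident-like cluster (95% counting interval 18.2 to 4051). Mgl2, a lectin shared with dendritic cells, had 1 UMI against 238.

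Csf1r and several receptors for antibodies were lower. Csf1r, the receptor that macrophages need to survive, stood at 54.6 and 54.6 CPM in the foamy-like cluster and at 667 and 471 CPM in the resident-like cluster (log2 fold change -3.25 ± 0.41). Of 9 tested Fc receptors and their signalling partners 5 were called lower and 2 higher (Trem2 and Tyrobp), with 2 lower without library 1-1 and 3 without each of the others. Fcgrt, which rescues antibodies from breakdown, had 3 UMIs against 160, a pooled ratio of 20.4 toward the resident-like cluster (95% counting interval 6.86 to 100). Tyrobp stood at 3549 and 3481 CPM against 2709.8 and 2800.3 CPM, and its log2 fold change of 0.42 ± 0.16 passed the test by little (adjusted p = 0.038). Its adjusted p was 0.102, 0.129, 0.131 and 0.223 without libraries 1-1, 1-2, 2-1 and 2-2 in turn, 0.24 with no TMM factor and 0.67 with DESeq2. Lyz2, lysozyme, stood at 25589 and 18865 CPM against 15055 and 14666 CPM (log2 fold change 0.63 ± 0.14), with an adjusted p of 0.0551 without library 1-1 and 0.346 without library 2-1. Reads of Lyz2 and its copy Lyz1 could have been split.

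Most tested genes of MHC class II, complement and the interferon response were lower. MHC class II molecules show peptides to CD4+ T cells, and of 7 tested genes of this pathway 6 were called lower and none higher (median log2 fold change -1.95). H2-Eb1 stood at 1383 and 819 CPM in the foamy-like cluster and at 5477 and 5770.4 CPM in the resident-like cluster (log2 fold change -2.33 ± 0.19). Cd74, the invariant chain, stood at 4259 and 1775 CPM against 9439.7 and 9646 CPM (log2 fold change -1.70 ± 0.19), with an adjusted p of 0.0535 without library 2-1. Ifi30, a reductase for antigen processing, was the member not called, at 783 and 478 CPM against 480.1 and 387 CPM. Of 11 tested class I genes 2 were called lower, H2-K1 and the immunoproteasome subunit Psmb8, and none higher. This is 18.2% of the list, near the 17.2% called lower over all genes, with a median of -0.14, and DESeq2 called none. The H2 genes are near-identical in part, so reads could have been split among them.

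Of 7 tested complement genes 6 were called lower and none higher (median -1.16), with 2 called without library 1-1 or 2-1. C1qa, which starts the classical pathway, stood at 4950.4 and 2416 CPM against 7723 and 8674 CPM (log2 fold change -1.16 ± 0.18), with an adjusted p of 0.067 without library 1-1 and 0.0958 without library 2-1. C4b, a component of the classical pathway, had 2 UMIs against 116, a pooled ratio of 22.2 toward the resident-like cluster. Of 6 tested interferon-stimulated genes all 6 were called lower (median -2.69). Ifi27l2a stood at 237 and 177 CPM against 2579.7 and 2961 CPM (log2 fold change -3.70 ± 0.24). Ifitm3, which keeps viruses from fusing with membranes, stood at 382 and 232 CPM against 2295 and 2866 CPM (log2 fold change -3.05 ± 0.23). The other 12 genes of the interferon list had too few counts, so the tested members leave out most classical members such as Ifit and Oas genes.

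Some chemokines and inflammatory genes were lower. Of 9 tested CC chemokines 5 were called lower and none higher, and of 3 CXC chemokines 2 were called lower. Of the CC chemokines 2 were called without library 1-1 or 1-2 and 3 without 2-1, and of the CXC chemokines 1 without any 1 of the 4 libraries. The CXC chemokine Cxcl2 was tested in these fits without 2-2 alone. Without library 1-2, 1 CC chemokine was called higher. Pf4, platelet factor 4, stood at 164 and 287 CPM against 3703 and 4205 CPM in the resident-like cluster (log2 fold change -4.03 ± 0.23). Il1b, the cytokine interleukin 1 beta, had 1 UMI against 74, and the resident-like replicates differed, at 423 and 104 CPM. Of 7 tested inflammatory macrophage markers 4 were called lower (Ccl4, Cxcl2, Il1b and Nfkbia), and the median of -1.33 was 0.68 without library 1-2. No member was called lower without library 1-1, 1-2 or 2-1, and 1 without 2-2, while 1 member was called higher without 1-2. Il1b had too few counts to be tested in any of these fits. Cxcl2 and Nfkbia were tested without 2-2 alone, so they could not be called in the other fits. The median was also above 0, at 0.01, with all 4 libraries kept and every cell thinned to 500 UMIs. Each of these medians is over the members tested in its own setting. Where the 4 called members were tested, they stayed below 0. Whether the list has a stable direction therefore cannot be told from medians over unlike members. Both clusters lay far below the deeper macrophages of cluster 2, where Cxcl2 stood at 21050.4 CPM against 72.8 and 95.6 CPM in the foamy-like and 382 and 118 CPM in the resident-like cluster. Ccr2, the receptor that draws monocytes to tissue, was the tested member of 7 monocyte markers, with no UMI against 37, at least 4.72-fold lower.

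Among 9 tested transcription factors of myeloid cells, Id2 was called higher, and Maf and Rbpj lower. These shares, 11.1% higher and 22.2% lower, are near the 15.6% and 17.2% over all genes. Maf, known from resident macrophages, had 1 UMI against 113, a pooled ratio of 43.2 toward the resident-like cluster (95% counting interval 7.61 to 1723). Id2, an inhibitor of helix-loop-helix factors, stood at 164 and 177 CPM against 32.6 and 33.0 CPM (log2 fold change 2.42 ± 0.49), with an adjusted p of 0.0725 without library 2-1. Rbpj, which acts downstream of Notch, had 3 UMIs against 57, with an adjusted p of 0.0671 without library 1-2 and 0.0559 without library 2-1. The lysosomal regulators Tfeb, Tfe3 and Mitf had too few counts for the test. Of 3 tested cell cycle genes 2 were called lower, Hmgb2 and Stmn1, with none called without library 1-2 and 1 without 2-1. Outside that list, Ccnd1, cyclin D1, had 1 UMI against 103.

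Most ribosomal protein genes did not pass the test. Of 80 tested 16 were called lower and 1, Rpl41, higher, with a median log2 fold change of -0.18. Against 17.2% of all genes called lower, these 16 are 20.0% of the list. Rps29 stood at 2293 and 2662 CPM against 3670.1 and 4488 CPM (log2 fold change -0.65 ± 0.16), with an adjusted p of 0.0907 without library 2-1. With no TMM factor 32 were called lower and 0 higher. Without library 1-1 or 1-2 the lower calls numbered 2, and without 2-1 there were 0. The adjusted p of Rpl41 was 0.152, 0.0847 and 0.0814 without libraries 1-1, 2-1 and 2-2. The count for this group therefore depended on the scaling and on single libraries.

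**Figure D5:**
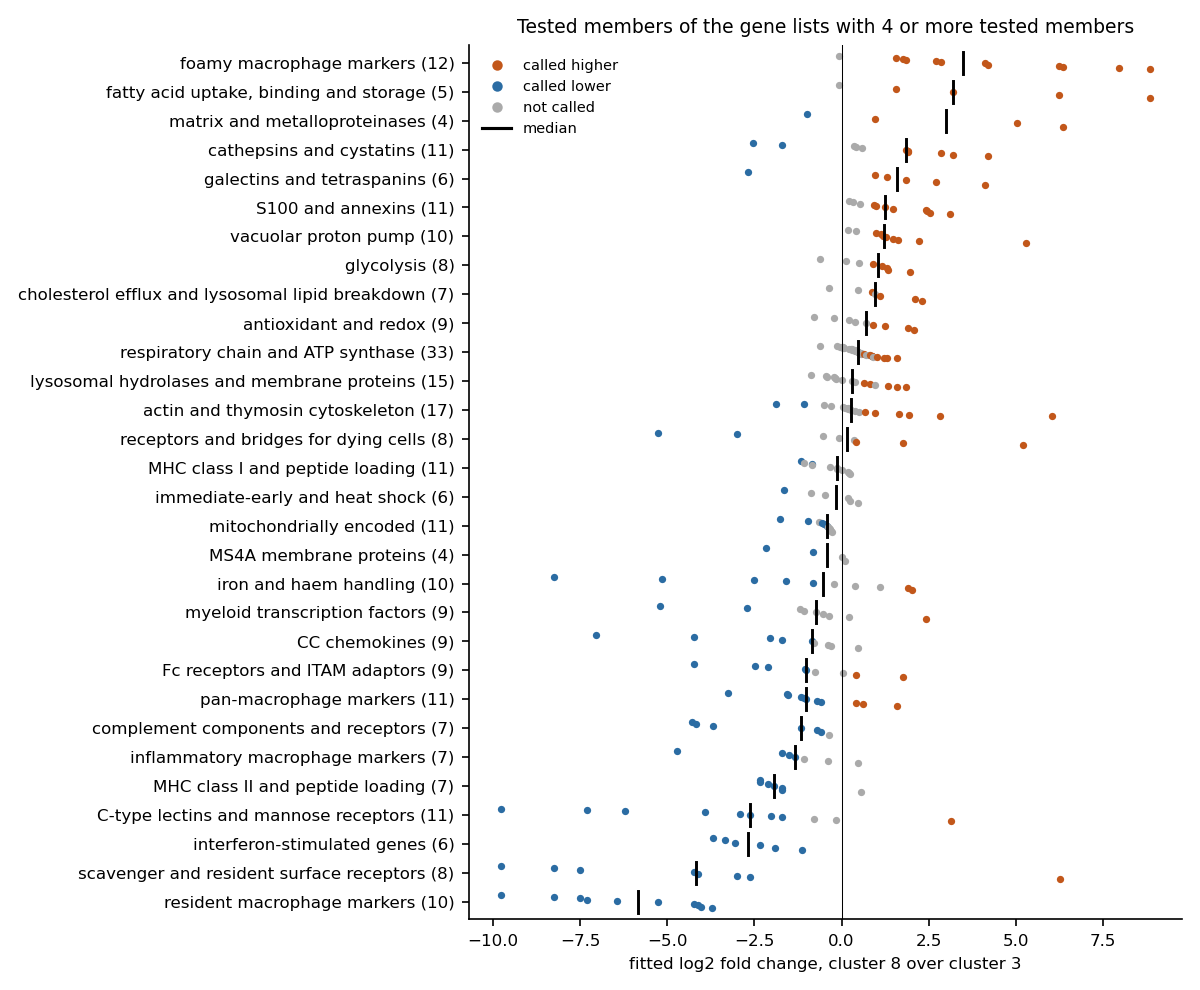
Fitted log2 fold changes (horizontal axis) of the tested members of 30 gene lists (vertical axis, number of tested members in brackets), with calls in colour and the list median as a bar; ribosomal proteins are not drawn. By median, lists of foamy markers, the vacuolar proton pump and cathepsins and cystatins lie to the right, higher in the foamy-like cluster 8. Lists of resident receptors, interferon-stimulated genes and MHC class II lie to the left. Lysosomal hydrolases and membrane proteins have a median of 0.31, with 9 members above 0 and 6 below.

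Markers of other cell types were scarce. The CD45+ gate is meant to exclude endothelial, smooth muscle, fat and fibroblast cells, while other leukocytes pass it. How completely it did so was not tested. No member of the B and plasma cell, T cell, neutrophil, endothelial, smooth muscle, erythroid, platelet or adipocyte lists passed the filter on counts. The summed fibroblast markers were 528 and 369 CPM in the foamy-like and 382 and 721 CPM in the resident-like cluster, and the 2 tested genes, Dcn and Gsn, were not called. UMIs of both genes were found in both clusters in all 4 libraries. Of the haemoglobin and other erythroid UMIs in the resident-like cluster nearly all lay in 1 cell, with 3400 of the 3433 haemoglobin UMIs. Without that cell 163 genes were called higher and 176 lower. T cell markers summed to 91.0 and 177 CPM in the foamy-like cluster, from Il7r with 17 UMIs and Lat with 1, while Cd3d, Cd3e and Cd3g were at 0. Of the B and plasma cell list Jchain, a plasma cell gene, had 42 UMIs in replicate 1 of the resident-like cluster and none elsewhere. Dendritic cell genes were tested for Clec10a and Mgl2 only, which resident macrophages also express, and both were lower in the foamy-like cluster. Of the cavity macrophage markers Fcrls and Retnla were tested and called lower, and 79.8% of the Retnla UMIs in the resident-like cluster lay in 1 cell. The part of these transcripts in the differences was not tested.

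Set beside the 4 deeper macrophage clusters (0, 1, 2 and 13), the foamy-like cluster held the extreme level for most called genes. Of the 186 genes called higher it had the highest mean CPM of the 6 macrophage clusters in 167, and the resident-like cluster had the lowest in 27. Of the 205 genes called lower it had the lowest level in 146, and the resident-like cluster had the highest in 89. In 72 of the 186 genes both shallow clusters lay above all 4 deep clusters, Fth1 not among them. The called genes were chosen by the difference between the foamy-like and resident-like clusters. That choice alone makes an extreme level in the foamy-like cluster more likely. Ranks were counted over called genes only, so whether these counts exceed what the choice gives was not tested. For Fth1 the deep cluster 0 stood at 11126 ± 565 CPM (SD, n = 2) and cluster 1 at 23006 ± 1372 CPM. For Mrc1 the resident-like mean of 951 CPM lay between cluster 1 at 370.1 ± 44.7 CPM and cluster 0 at 1548 ± 129 CPM. For Spp1 the highest of the deep clusters was cluster 1, at 943 ± 251 CPM against a foamy-like mean of 10361 CPM. For Ccl8 the resident-like mean of 2894 CPM was above all 4 deep clusters, of which cluster 0 was highest at 875 ± 128 CPM. These are levels of clusters that differ in depth and nuclear RNA, and no test was made of them.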

How the data were processed

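Living CD45+ cells of aortas from Apoe-/- mice were profiled with 10x 3' libraries, per the labels' protocols. The submitters' processing notes name Cell Ranger 3.0.2, Seurat 3.1.1 and mm10. The authors deposited raw UMI counts for 18825 genes in 3002 cells that they called myeloid, with cluster numbers (an other kind of value, a category) and the percent of mitochondrial UMIs per cell. Their cell filters, doublet treatment and strand setting are not given in the sources used. Their log-normalized values were not used.

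The counts of the 105 cells of cluster 8 and the 325 cells of cluster 3 were summed per cluster and biological replicate, which gave sums of 54945 and 73257 UMIs for cluster 8 and 122885 and 212119 for cluster 3. edgeR 4.0.16 in R 4.3.3 (filterByExpr, TMM factors, quasi-likelihood F-test) was fitted to these 4 sums with the biological replicate as a block, since both clusters of a replicate come from the same animals. That left 1 residual degree of freedom. The differences between replicates did not move together in the clusters (r = 0.06 over 1189 genes, which are not independent). Of 10013 genes with a count, 1189 passed the filter, and a Benjamini-Hochberg adjusted p under 0.05 over these is called. CPM use full totals. Bounds for genes with no UMI use a floor of 3 counts over the group, and intervals and floors are exact at 95% and cover counting error only.

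Genes were named by a rule: called, the same direction in both replicates, at least 100 CPM on the higher side and under 50% of those UMIs in 1 cell, then the 15 highest and 15 lowest by fold, the 10 called genes of highest level in each direction, up to 4 called members of each list, and for a list with no call up to 2 members by level. Spp1, Gpnmb, Ccl8, Cd209f, Apoe, Malat1 and Neat1 were named whatever their values. That gave 155 genes, of which 133 were called. Cd36, Ctsc, Hmox1, Ifi30, Lipa, Retnla and a few further list members named without a fold were singled out after their values were seen. A withheld item is not reported here. The cells, members and lists were chosen with earlier results of these data known.

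On simulated counts for 1084 genes of this comparison, the test called 50 of 50 genes made 4-fold higher, 33 of 49 made 2-fold higher, 17 of 41 at 0.5-fold, 31 of 38 at 0.25-fold and 1 of 906 unchanged. At each fold 50 genes were changed, and those that then failed the filter on counts are left out of these numbers. The simulation drew no clusters from the counts, so it does not give the rate of false calls in this comparison. The alternatives were RLE factors, no TMM factor, DESeq2, no filter or a filter of 30 counts, no block, sums per library, a fit with 9 clusters, cells thinned to 500 UMIs, cells with no Malat1 UMI, no haemoglobin-rich cell, no deepest 5% of cells, and leaving out each library or replicate.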

Additional observations from a re-analysis of the deposited data

Results flagged for a closer look

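One value stood apart within its group. F13a1, the coagulation factor subunit, stood at 33.2 CPM in library 2-2 of the foamy-like cluster and at 0 CPM in libraries 1-1, 1-2 and 2-1. The value rests on 1 UMI. Any gene with a single UMI in 4 libraries stands apart in this way by construction, so the gap carries no information beyond that UMI. For continuous values chance gives such a gap in about 5% of groups, a rate that does not hold for counts near 0.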

How the results depend on the processing

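The counts of 186 genes called higher and 205 called lower moved with the fit, and no gene was called in the opposite direction under any alternative. DESeq2 called 56 higher and 47 lower, sums per library 111 and 124, thinned cells 115 and 113, no filter on counts 112 and 254, a filter of 30 counts 129 and 106, cells with no Malat1 UMI 124 and 114, and the fit of 9 clusters 138 and 402. Leaving out 1 library gave 85 to 114 higher and 70 to 112 lower. Sums per library without replicate 1 gave 110 and 131, and without replicate 2 they gave 55 and 51. Without the replicate block 162 were called higher and 165 lower. The 8 library sums tested 542 genes and the thinned cells 606. Fits without 1 library tested 688 to 1019 genes. Fewer genes could therefore be called in these settings. For DESeq2 the cause was not tested. Of the 133 called genes the text draws on, 74 were called in every alternative that tested them, and none changed sign. The share of cluster 8 was 29.9% in library 1-2 and 19.0% in library 2-2. Of the genes not called, Dcn (-0.08) changed sign in thinned cells (0.25), in cells with no Malat1 UMI (0.074), without library 1-2 (0.02) and without library 2-2 (0.057), with -0.14 as the lowest value without 1 library. Gsn (0.08) changed sign with no TMM factor (-0.084), no filter (-0.15), 9 clusters (-0.18), no deepest cells (-0.0072), without library 1-2 (-0.69, and 0.39 at most without 1 library) and in library sums without replicate 1 (-0.90). The depth limits what was tested: 10013 genes had a count and 1189 had enough.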
